A study of Mus musculus with 2 samples.

Results

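The genes described here encode the peroxisome proliferator-activated receptors (PPARs), coactivators of the PGC-1 family, and proteins of fatty acid uptake, binding and fuel choice. The 10 members were *Ppara*, *Ppard*, *Pparg*, *Ppargc1a*, *Ppargc1b*, *Cd36*, *Fabp1*, *Fabp2*, *Fabp4* and *Pdk4*, chosen by gene symbol from the 45777 gene symbols of the deposited table. All 10 passed the count filter (at least 10 estimated counts in at least 1 of the 2 libraries), as did 15857 genes in all. Their 61 transcript rows held 217695 estimated counts with AAV-GFP and 218782 with AAV-*Wee1-AS*, of which *Fabp1* alone took 87.3% and 83.5%.

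RNA was sequenced from livers of C57BL/6 mice that started a high-fat diet (HFD) at 7 weeks of age and stayed on it for 18 weeks. At week 13 of the diet, 5 weeks before its end, the mice received an adeno-associated virus (AAV9 type, injected behind the eye) that carried either GFP, as the control, or *Wee1-AS*, a long noncoding RNA read from the strand opposite to *Wee1*. A CMV promoter, which is not specific to hepatocytes, drove the insert, the labels name no genetic modification of the mice, and neither the sex of the mice nor the number of mice behind a library is given in the sources used here. One library per group was analysed here, although the series' design text speaks of 4 liver samples, so no value has a replicate check, no p-value is given, and *Wee1-AS* itself was not analysed here.

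PPARs are nuclear receptors that bind fatty acids and their derivatives, pair with a retinoid X receptor (RXR) and sit on DNA at direct repeats of a short half-site. PPARα is the main form of hepatocytes and turns on fatty acid oxidation and ketone formation in fasting, PPARδ is found in most tissues, and PPARγ drives fat storage in adipocytes and appears in hepatocytes of steatotic liver. The PGC-1 proteins bind such receptors and raise transcription of mitochondrial genes, whereas CD36, the fatty acid binding proteins and PDK4 act downstream on uptake, transport inside the cell and the choice between glucose and fat as fuel.

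The AAV-GFP library held 55466182 estimated counts and the AAV-*Wee1-AS* library 48079335, and 18753 and 18798 genes were detected. Values were scaled by TMM (a scaling that centres most genes on no difference) and are given as scaled counts per 1000000 (CPM), and a log2 ratio is AAV-*Wee1-AS* over AAV-GFP. The brackets after a ratio hold its exact (Clopper-Pearson) 95% interval from both counts, which covers counting error only and compares 2 libraries, not 2 treatments. Of the genes past the filter, 22.5% had a ratio above 2, 8.43% a ratio below 0.5, and 31.0% one or the other. The interval lay wholly above 1 for 39.6% of genes and wholly below 1 for 37.4%.

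The ratio of the libraries moved with the GC content of the transcripts over all genes. With the genes in 10 bins of equal number by GC content, the median log2 ratio was 1.44 in the bin with the lowest GC content, -0.10 in bin 6 and -0.68 in the bin with the highest. *Cd36*, at 38.4% GC, lies in the lowest bin, *Ppargc1a*, *Fabp2* and *Fabp4* lie in the bin with a median of 1.14, and *Ppargc1b*, at 57.8% GC, lies in the highest. The part of this trend in the members' ratios was not tested beyond its removal. Ratios are therefore also given after removal of both trends, that with GC and that with the length of the transcript, from the longest GENCODE transcript of each gene and, as an alternative chosen after seeing the data, from the GENCODE transcript paired with the most counted RefSeq transcript. The second removal took the deposited length of that RefSeq transcript and was fitted over 13773 genes, the first over 14995. For *Ppara* and *Ppargc1b* both removals used the same GENCODE model and GC content, and differed in the length entered, 3413 and 3656 bases in the first and 7445 and 10328 in the second, and in the genes fitted. Since these models are shorter than the counted RefSeq transcripts, their GC content, and so their GC bin, does not cover all of the counted RNA. Agreement of the removals for these genes is therefore no check on their GC content.

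**Figure D1:**
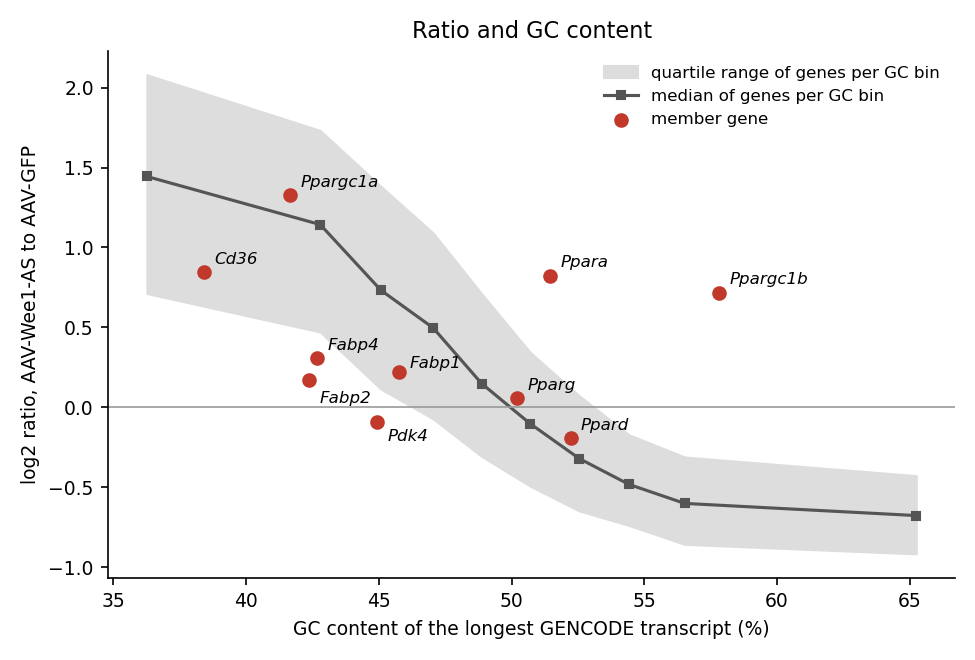
Log2 ratio (AAV-*Wee1-AS* over AAV-GFP) against the GC content of the longest GENCODE transcript (%), with the 10 members as red points and the median (squares) and quartile range (grey) of all genes in each of 10 GC bins. The ratio of *Ppara*, 0.82, and that of *Ppargc1b*, 0.72, lie above the quartile range of genes of like GC content, and *Fabp2*, *Fabp4* and *Pdk4* lie below it. For *Ppara* and *Ppargc1b* the GENCODE transcript is shorter than the most counted RefSeq transcript, so its GC content covers only part of the counted RNA.

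Of the 10 members, 8 had a higher level in the AAV-*Wee1-AS* library and 2 a lower one, with a median log2 ratio of 0.26 against -0.00 over all genes past the filter. One member, *Ppargc1a*, passed 2-fold, against 22.5% of all genes in that direction, and none was below 0.5. *Ppargc1a* did not pass with TPM (0.75) or FPKM (0.47) and a pseudocount of 1, and stood at 1.97 with TPM and no pseudocount. The counting interval lay wholly above 1 for 7 members (39.6% of all genes), held 1 for *Ppard*, *Pparg* and *Pdk4*, and lay wholly below 1 for 0 (37.4% of all genes). After the trends were removed, 4 members were higher and 6 lower with the longest transcripts (2 past 2-fold, *Ppara* at 1.00 and *Ppargc1b* at 1.29), where 7.38% of all genes had a ratio above 2 and 8.53% one below 0.5. With the paired transcripts, 3 were higher and 7 lower (0 past 2-fold), beside 6.13% and 7.43% of all genes. *Ppara* and *Ppargc1b* were higher and *Pdk4* lower under both removals and without them. For each of these genes both removals used the same GC content.

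**Figure D2:**
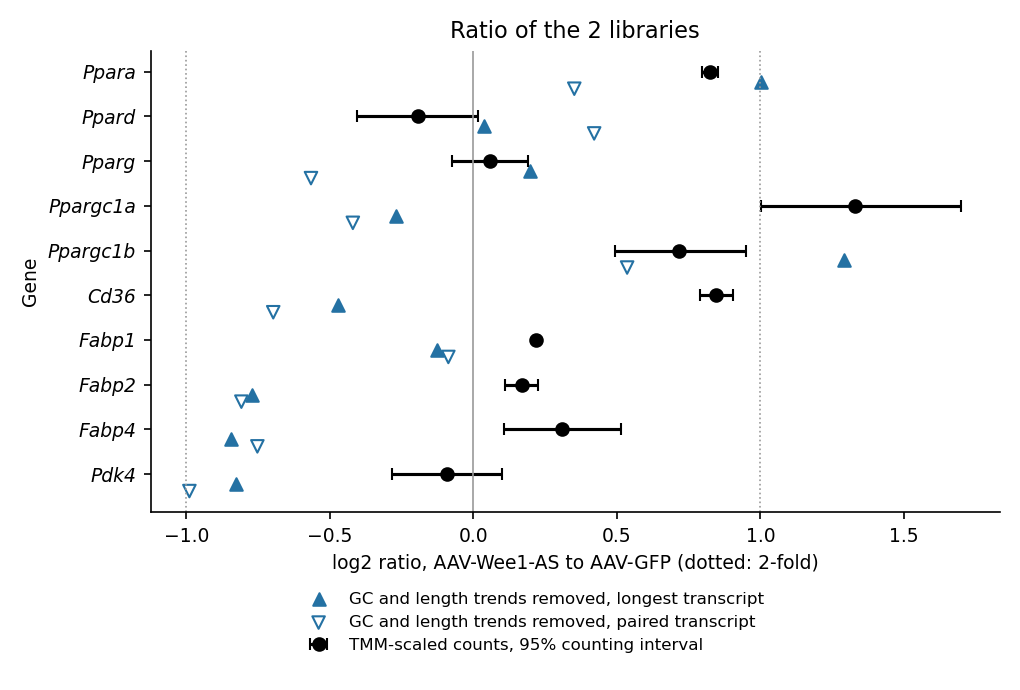
Log2 ratio of each member with its 95% counting interval (black), and after the trends with GC content and length were removed with the longest (filled triangles) or the paired (open triangles) transcript. *Ppargc1a*, at 1.33, is the only black point past the dotted line of 2-fold, and the triangles of *Cd36*, *Ppargc1a* and the *Fabp* genes lie on the other side of 0 from their black points.

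On the length-scaled TPM axis, the order of the members was the same in both libraries. *Fabp1* came first at 11275 TPM with AAV-GFP and 12776 with AAV-*Wee1-AS*, followed by *Fabp2*, *Ppara*, *Cd36*, *Fabp4*, *Pparg*, *Pdk4*, *Ppard*, *Ppargc1b* and *Ppargc1a*. With 1 library per group, no spread shows whether neighbours in this order differ beyond the error between mice.

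**Figure D3:**
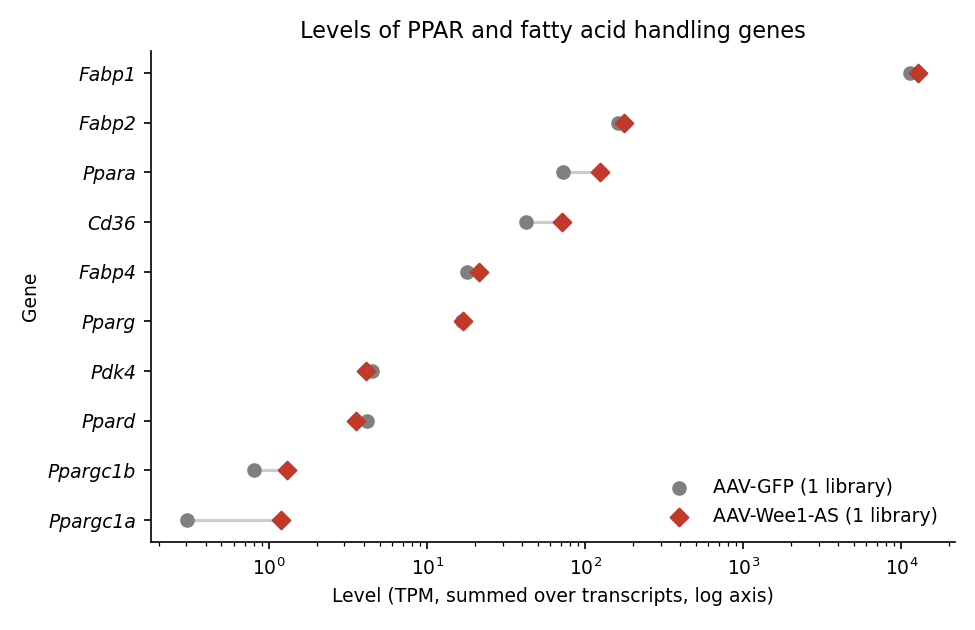
Level of each member in TPM (log axis), with AAV-GFP as grey circles and AAV-*Wee1-AS* as red diamonds. *Fabp1* stands highest, at 11275 and 12776 TPM, and *Ppargc1a* lowest, at 0.304 and 1.19 TPM, and the order of the genes is the same in both libraries.

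Among the receptors, *Ppara* was the most abundant, and its ratio was above those of *Ppard* and *Pparg* except after the second removal of the trends, where *Ppard* stood higher. *Ppara* (gene ID 19013, chr15:85734910-85806851, mm10) had 15638 estimated counts with AAV-GFP and 22836 with AAV-*Wee1-AS*, or 275 and 487 scaled CPM, and 72.4 and 125 TPM. The ratio was 1.77 (1.73 to 1.81), a log2 ratio of 0.82 (0.79 to 0.85), above that of 73.7% of all genes past the filter, where genes of like GC content had a median of -0.10. The value was 1.00 after the first removal of the trends and 0.35 after the second.

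*Ppara* has 14 transcript rows, and the difference sat in the reference transcript. Transcript NM_011144 had 12764 and 20700 counts (log2 ratio 0.98), and the predicted transcript XM_030248421, with 1451 and 346 counts, moved the other way (log2 ratio -1.79). In all, 11 rows were higher and 3 lower after scaling. Counts of a row are shares that the estimator assigned among overlapping transcripts, so a shift between rows of 1 gene does not have to be a shift between RNAs.

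*Ppard* (gene ID 19015, chr17:28232754-28301469) and *Pparg* (gene ID 19016, chr6:115360879-115490404) were nearly level between the libraries. *Ppard* had 441 and 318 counts, 7.76 and 6.78 scaled CPM, and a log2 ratio of -0.19 (-0.41 to 0.02). Its value after removal of the trends was 0.04 with the longest transcript and 0.42 with the paired one. *Pparg* had 1022 and 877 counts, 16.5 and 17.0 TPM, and a log2 ratio of 0.06 (-0.07 to 0.19), and it came to 0.20 and -0.57 after the removals. Both intervals held 1, so a difference between the libraries was not detectable at this depth for either gene.

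The counts of *Pparg* were shared out differently over its transcript starts, of which those of NM_001127330 and NM_011146 lie 61115 bases apart. The 11 transcripts with the upstream starts, which include the PPARγ1 form, had 395 counts with AAV-GFP and 239 with AAV-*Wee1-AS*, a log2 ratio of -0.44 (-0.68 to -0.21). The 2 transcripts with the downstream starts had 627 and 638 counts, a log2 ratio of 0.30 (0.14 to 0.46). Nearly all of the downstream counts, 598 and 597, were on NM_011146, the PPARγ2 transcript that is known for adipocytes and for steatotic hepatocytes. The upstream starts held 38.6% of the counts of the gene with AAV-GFP and 27.3% with AAV-*Wee1-AS*. These groups of starts, like those of *Cd36* and *Ppargc1a*, were drawn after their values were seen. Their intervals leave out the error of assigning reads among overlapping transcripts, and whether the use of the starts differs was not tested.

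**Figure D4:**
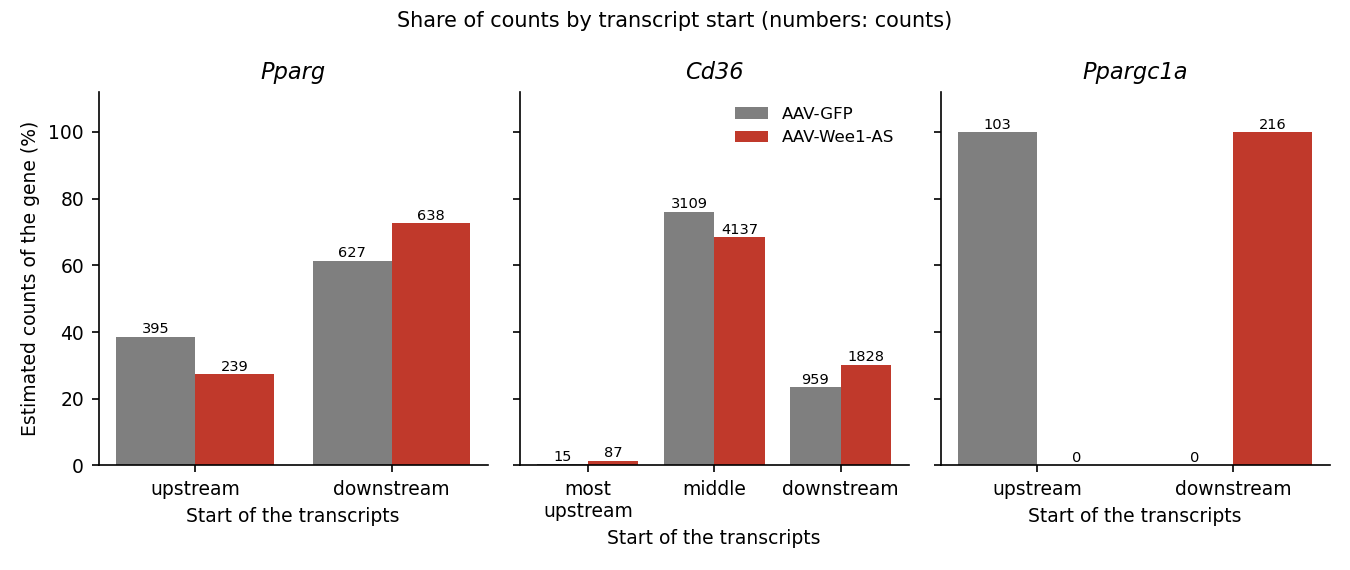
Share of the estimated counts of *Pparg*, *Cd36* and *Ppargc1a* (% of the gene's counts) on transcripts with different starts, for the AAV-GFP (grey) and AAV-*Wee1-AS* (red) library, with the counts above the bars. The upstream starts of *Pparg* went from 38.6% to 27.3%, the downstream starts of *Cd36* from 23.5% to 30.2%, and all counts of *Ppargc1a* stood on different starts in the 2 libraries. The groups of starts were drawn after their values were seen.

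The coactivators had the lowest TPM of the members, from 0.304 to 1.29. *Ppargc1a* (PGC-1α, gene ID 19017, chr5:51454249-52115853), a switch of mitochondrial biogenesis and of hepatic gluconeogenesis, had 103 counts with AAV-GFP and 216 with AAV-*Wee1-AS*, or 1.81 and 4.61 scaled CPM. The ratio was 2.51 (2.00 to 3.25) and the log2 ratio 1.33 (1.00 to 1.70), above that of 83.6% of all genes past the filter. If both reads of a pair were counted, which the sources used here do not say, intervals are too narrow, and with halved counts that of *Ppargc1a* was 0.87 to 1.87. Genes of like GC content had a median of 1.14, and after removal of the trends *Ppargc1a* was at -0.27 with the longest transcript and -0.42 with the paired one.

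The 2 libraries shared no counted transcript of *Ppargc1a*. All 103 counts of the AAV-GFP library were on XM_017320717, a predicted transcript of 10241 bases that starts upstream, where the AAV-*Wee1-AS* library had 0. The 216 counts of the AAV-*Wee1-AS* library were on NM_008904 (212) and XM_030254205 (4), where the AAV-GFP library had 0. The other 10 of the 13 rows were at 0 in both libraries. Whether the reads differ or only their assignment was not tested.

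*Ppargc1b* (PGC-1β, gene ID 170826, chromosome 18), a coactivator tied to mitochondrial and lipogenic genes, had 275 and 374 counts, or 4.84 and 7.97 scaled CPM. The log2 ratio was 0.72 (0.49 to 0.95), whereas genes of like GC content had a median of -0.68, and it was 1.29 and 0.54 after the removals of the trends. Of the genes that overlap it, LOC115488931 had 9 and 0 counts, and *Mir378a* and *Gm46627* had 0 in both libraries.

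CD36, a transporter of long-chain fatty acids at the cell surface, had a log2 ratio close to that of *Ppara*, and their intervals overlap. *Cd36* (gene ID 12491, chr5:17781690-17888959) had 4083 counts with AAV-GFP and 6052 with AAV-*Wee1-AS*, or 71.8 and 129 scaled CPM. The ratio was 1.80 (1.73 to 1.87) and the log2 ratio 0.85 (0.79 to 0.90), while genes of like GC content had a median of 1.44. Removal of the trends turned it to -0.47 with the longest transcript and to -0.70 with the paired one.

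All 12 transcript rows of *Cd36* were higher in the AAV-*Wee1-AS* library after scaling, by unequal amounts. The 4 rows with the middle starts, which held 76.1% and 68.4% of the counts, had 3109 and 4137 counts and a log2 ratio of 0.69 (0.62 to 0.76). The 4 rows with the downstream starts had 959 and 1828 counts and a log2 ratio of 1.21 (1.09 to 1.32), and the 4 rows with the most upstream starts had 15 and 87 counts and a log2 ratio of 2.65 (2.01 to 3.71). The intervals of the 3 groups of starts do not overlap, but they leave out the error of assigning reads among overlapping transcripts. The groups were also drawn after their values were seen, so a different use of the starts was not tested.

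PPARs with RXR bind DR1 elements, 2 copies of AGGTCA in the same direction with 1 base between them. The 250 bases before each start of the RefSeq promoter table (GRCm38.p6, the sequence build of mm10) were searched on both strands, with up to 2 of the 12 half-site letters differing, a rule met by 3.24% of the 32851 windows of the table and, with up to 1 letter, by 0.484%. Of the members, 8 matched the table with 10 windows (*Fabp4* and *Ppargc1b* did not), and 2 windows held a match, that of *Fabp1* and that of the downstream *Cd36* start. Both are printed 5′ to 3′ on the strand of the gene, with the match in capitals, because the data bear on the genes they precede. The match reads towards the other strand in both, as AGGCCATAGGTCA in *Fabp1* (1 letter differs, 55 to 67 bases before the start) and as AAGTCAGAGGCCA in *Cd36* (2 letters differ, 51 to 63 bases before the start).
Fabp1, chr6:71199629-71199878, plus strand: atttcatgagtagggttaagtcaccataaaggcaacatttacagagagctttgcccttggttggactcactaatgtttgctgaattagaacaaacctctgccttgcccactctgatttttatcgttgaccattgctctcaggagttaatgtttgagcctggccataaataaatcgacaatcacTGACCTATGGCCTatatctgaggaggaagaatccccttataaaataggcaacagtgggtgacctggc
Cd36, chr5:17835897-17836146, minus strand: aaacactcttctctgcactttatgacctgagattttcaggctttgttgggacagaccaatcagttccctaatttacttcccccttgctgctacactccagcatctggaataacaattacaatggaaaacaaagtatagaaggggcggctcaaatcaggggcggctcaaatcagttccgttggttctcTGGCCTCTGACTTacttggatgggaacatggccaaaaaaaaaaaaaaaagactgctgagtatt
The printed *Cd36* window precedes transcripts NM_001159555, with 321 and 790 counts, and NM_007643, with 602 and 972 counts. No GENCODE start was marked for this window, unlike for the other windows. The middle *Cd36* starts, with 76.1% and 68.4% of the counts of the gene, had no window and were not searched. No match in the other windows, the 3 of *Pparg* included, says only that these letters are not in the 250 bases, and a match is a description of the letters. The *Ppargc1a* window precedes NR_132764 and a *Pparg* window precedes NM_001308354, transcripts with 0 counts in both libraries.

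The fatty acid binding proteins carry fatty acids in the cytosol, and the 3 members were each slightly higher in the AAV-*Wee1-AS* library. *Fabp1*, the form of hepatocytes (gene ID 14080, chr6:71199879-71205034), had 190133 and 182587 counts, or 3344 and 3893 scaled CPM. Its ratio of 1.16 (1.16 to 1.17) was small beside that of *Ppara* or *Cd36*, and its log2 ratio of 0.22 (0.21 to 0.23) stood against 0.73 for genes of like GC content. After removal of the trends it was -0.13 and -0.09.

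*Fabp2*, best known from enterocytes (gene ID 14079, chr3:122895072-122899506), had 5088 and 4717 counts, or 89.5 and 101 scaled CPM. The log2 ratio was 0.17 (0.11 to 0.23), and after removal of the trends -0.77 and -0.81. Of 8 enterocyte markers, *Lct*, *Sis*, *Alpi*, *Cdx1* and *Cdx2* were at 0 counts in both libraries, *Vil1* had 3 and 5 and *Krt20* 4 and 0. The last, *Apoa4*, which the mouse liver also makes, had 335069 and 44701 (log2 ratio -2.63, and -1.87 without the trends). The part of such cells in the value of *Fabp2* was not tested. The overlapping gene *4933405D12Rik* had 9 and 5 counts.

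*Fabp4*, the adipocyte and macrophage form (gene ID 11770, chr3:10204342-10208616), had 399 and 408 counts, or 7.02 and 8.70 scaled CPM. The log2 ratio was 0.31 (0.11 to 0.51), and after removal of the trends -0.85 and -0.75. Of 8 adipocyte markers, 4 passed the filter, namely *Cfd* (492 and 431 counts), *Lipe* (1417 and 1433), *Pnpla2* (5543 and 3122) and *Cidec* (7683 and 1236). The other 4 were at or near 0, with *Plin1* and *Lep* at 0 in both libraries, *Adipoq* at 2 counts in each and *Retn* at 0 and 4. Summed over 12 markers of macrophages and Kupffer cells, the level was 924 scaled CPM with AAV-GFP and 657 with AAV-*Wee1-AS*, but 5 of the 12 were higher, with *Marco* (log2 ratio 1.62), *Vsig4* (1.53) and *Timd4* (1.42) past 2-fold higher and *C1qc* (-1.01) past it lower, shares near the 22.5% and 8.43% of all genes. After removal of the trends 1 of the 12 was past 2-fold higher and 0 lower, with a median of -0.11. Over 10 endothelial markers the level was 432 and 344, with 4 of them higher and 6 lower. In bulk liver, fewer cells of a type and less RNA per cell cannot be told apart, and the part of these cells in the values of *Fabp4* and *Cd36* was not tested.

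PDK4 blocks the pyruvate dehydrogenase complex and so keeps pyruvate from oxidation when fat is burned, and its gene is a common readout of PPARα. *Pdk4* (gene ID 27273, chr6:5483351-5496278) had 513 counts with AAV-GFP and 397 with AAV-*Wee1-AS*, or 9.02 and 8.46 scaled CPM. The log2 ratio was -0.09 (-0.28 to 0.10), an interval that holds no difference, while genes of like GC content had a median of 0.73, and after removal of the trends it was -0.83 and -0.99. Of 9 marker genes of striated muscle, a tissue rich in *Pdk4*, 7 were at 0 in both libraries, *Actc1* had 22 and 0 counts and *Myh1* had 4 and 0. The part of such tissue in the value of *Pdk4* was not tested.

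The partners and targets of these genes were read from lists by role. Values without the trends rest on the first removal only, for these lists and for the markers of cell types. All 3 RXR genes were lower in the AAV-*Wee1-AS* library, as were 7942 of the 15857 genes past the filter. The median log2 ratio of the 3 was -0.78 (-0.00 without the trends). *Rxra*, the main hepatic form, had 37890 and 25323 counts (log2 ratio -0.30), *Rxrb* 2588 and 1245 (-0.78), and *Rxrg* 551 and 209 (-1.11), which was below 0.5 as for 8.43% of all genes. After the removal *Rxra* turned to 0.06, *Rxrb* was at -0.00 and *Rxrg* at -0.54, and none of them was past 2-fold.

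Of 12 coactivators and corepressors of nuclear receptors, 7 passed 2-fold higher and 0 lower, against 22.5% and 8.43% of all genes, with a median log2 ratio of 1.06. The highest were *Nrip1* (a corepressor, 123 and 553 counts, log2 ratio 2.43), *Sirt1* (the deacetylase that acts on PGC-1α, 113 and 356, 1.91) and *Ncoa2* (613 and 1699, 1.74). *Hdac3* (2441 and 1677 counts, -0.26) and *Lpin1* (10565 and 8332, -0.06) were on the lower side of the list. After removal of the trends, the median came to 0.38 and 0 of the 12 passed 2-fold.

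Of 7 partners of the PGC-1 proteins past the filter, 3 passed 2-fold higher and 0 lower, against 22.5% and 8.43% of all genes, with a median log2 ratio of -0.10 (-0.23 without the trends). *Gabpa* (299 and 1453 counts, 2.55), *Esrrg* (68 and 205, 1.84) and the mitochondrial transcription factor *Tfam* (1107 and 1840, 1.01) were the highest, and without the trends *Gabpa* alone was past 2-fold, at 1.10, with *Esrrg* at 0.48 and *Tfam* at 0.18. *Esrra*, the estrogen-related receptor that PGC-1α uses in most tissues, had 1944 and 951 counts (-0.75), *Esrrb* had 115 and 54 (-0.79), and *Pprc1*, the third PGC-1 family gene, had 693 and 406 (-0.49).

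Of 32 hepatic target genes of PPARα, 10 were higher and 22 lower, and 1 passed 2-fold higher and 2 lower, against 22.5% and 8.43% of all genes, with a median log2 ratio of -0.20 (-0.17 without the trends). *Acsl1*, which activates fatty acids, passed 2-fold higher at 1.02 (33910 and 56580 counts) but was at -0.05 after the removal. *Acadm* (10703 and 15834 counts, 0.84) and *Cpt1a* (31370 and 35483, 0.46), enzymes of β-oxidation and of fatty acid entry into mitochondria, came next. The lowest were *Ucp2* (7473 and 2754 counts, -1.16), *Fgf21* (367 and 144, -1.06), both below 0.5, and *Acaa1b* (187818 and 87201, -0.83). After the removal *Ucp2* was at -0.77, *Fgf21* at -0.47 and *Acaa1b* at -0.04. The 1 gene then past 2-fold was *Hadhb*, named after its values were seen, at -1.50. Before the removal it was nearly level (12376 and 9746 counts, -0.07).

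Among 9 genes known as PPARγ targets in steatotic liver and past the filter, 4 were below 0.5 and 0 above 2, against 8.43% and 22.5% of all genes, with a median log2 ratio of -0.73. The lipid droplet genes *Cidea* (1784 and 192 counts, -2.93) and *Cidec* (7683 and 1236, -2.36) and the acyltransferase *Mogat1* (1272 and 405, -1.37) were the lowest with at least 100 counts, and *Aqp7*, the glycerol channel, named after its values were seen, had 94 and 7 counts (-3.17). *Scd1* (531673 and 571011 counts, 0.38) and *Lpl* (648 and 551, 0.04) had ratios just above 1, and *Plin5* had 3275 and 1799 counts (-0.59). All 3 turned when the trends were removed, *Scd1* to -0.24, *Lpl* to -0.98 and *Plin5* to 0.19. After removal of the trends, the median was -0.98 and 4 genes were below 0.5, as were 8.53% of all genes. The total of *Pparg* counts stood at a log2 ratio of 0.06 beside these values.

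Of 15 other genes of fatty acid uptake and binding past the filter, 0 passed 2-fold higher and 2 lower, against 22.5% and 8.43% of all genes, with a median log2 ratio of 0.33 (0.15 without the trends). Both that were lower are paralogs of the binding proteins. *Fabp5* had 443 and 181 counts (-1.01, interval -1.27 to -0.76), and *Fabp3*, the heart form, had 18 and 2 (-2.13, interval -6.04 to -0.83). The brain form *Fabp7* had 76 and 109 counts (0.78), *Fabp12* had 7 and 0, and *Fabp6* and *Fabp9* had 0 in both. *Cav1* (93 and 148 counts, 0.93) and *Scarb2* (6465 and 9789, 0.88) were the highest, and *Slc27a4* (5902 and 2666, -0.87) and *Scarb1* (13765 and 7612, -0.58) were lower. After removal of the trends *Cav1* was at -0.03, *Scarb2* at 0.16 and *Fabp7* at -0.11. In the list, 1 gene was then past 2-fold higher (*Slc27a3*, named after its values were seen, 32 and 36 counts, at 1.19) and 2 lower.

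Of the other kinases of the family of *Pdk4*, *Pdk1* had 2061 and 5061 counts (log2 ratio 1.57), *Pdk2*, the most abundant in these livers at 132 and 96.6 TPM, had 9838 and 6103 (-0.41, and 0.28 without the trends), and *Pdk3* had 49 and 27 (-0.55, interval -1.32 to 0.12). Of all 11 genes of this family, its phosphatases and the pyruvate dehydrogenase complex, 4 passed 2-fold higher and 0 lower, against 22.5% and 8.43% of all genes, with a median of 0.82 (0.28 without the trends). Beside *Pdk1* these were *Pdpr* (581 and 1592 counts, 1.73), *Dld* (1499 and 3779, 1.61) and *Pdp1*, named after its values were seen (13 and 39, 1.70). Without the trends *Pdpr* alone was past 2-fold, at 1.23, with *Pdk1* at 0.79, *Dld* at 0.45 and *Pdp1* at 0.29. *Pdhb* (6706 and 5663 counts, 0.03) and *Dlat* (2947 and 2685, 0.14) were nearly level, but at -0.38 and -0.35 without the trends.

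**Figure D5:**
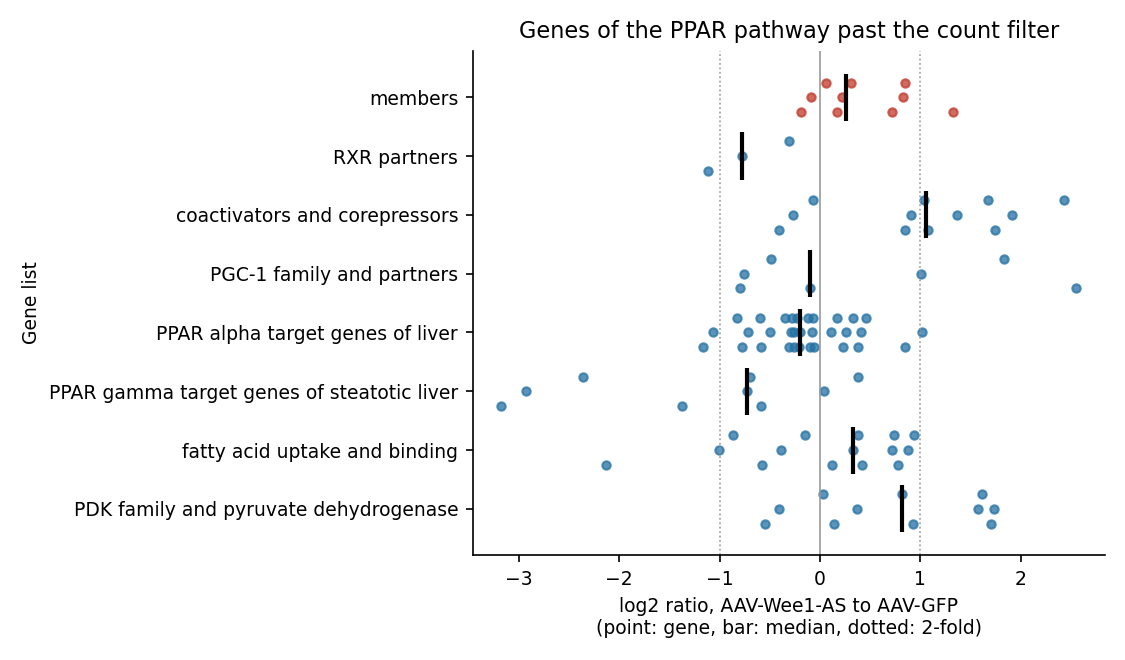
Log2 ratio (AAV-*Wee1-AS* over AAV-GFP) of the members and of each gene past the count filter in lists of partners and targets, with the median of each list as a bar and 2-fold as dotted lines. The median of the coactivators and corepressors is 1.06, that of the PPARγ targets -0.73 and that of the PPARα targets -0.20, beside 0.26 for the members.

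The liver label matched its defining genes, since 10 hepatocyte markers summed to 93189 scaled CPM with AAV-GFP and 109915 with AAV-*Wee1-AS*. *Alb* alone went from 44720 to 65362 scaled CPM, and 6 of the 10 were lower, with a median log2 ratio of -0.09 (0.27 after removal of the trends). *Cps1*, with 63481 and 122243 counts, was the 1 marker past 2-fold, at 1.22, and came to 0.43 after the removal. Stellate cell markers (9 genes) summed to 421 and 297, with 4 higher (*Lrat* and *Rgs5* past 2-fold) and 5 lower (4 past 2-fold), against 22.5% and 8.43% of all genes past 2-fold. After removal of the trends 0 of the 9 were past 2-fold higher and 4 lower, with a median of -0.89. The 4 were then *Col1a1* (-2.01), *Col3a1* (-2.01), *Acta2* (-1.63) and *Dcn* (-1.18), while *Lrat* was at 0.05 and *Rgs5* at 0.27. Of 8 enterocyte markers 1, *Apoa4*, which the mouse liver also makes, passed the filter with 335069 and 44701 counts. The part of the cell makeup in the ratios of the receptors and their targets was not tested.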

How the data were processed

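Poly-A RNA of 2 livers or liver pools was sequenced, 1 library per group. Per the submitters' processing notes, Trimmomatic 0.38, HISAT2 2.1.0, SAMtools 1.9, StringTie 2.1.3b and the mouse build mm10 were used. The authors deposited, for 129299 RefSeq transcripts, an estimated count, an FPKM value, a TPM value and the length. As deposited, the estimated counts carry no normalization and equal FPKM times length times a constant, rounded up (within 1 for 98.2% and 98.4% of rows), so depth, 55466182 and 48079335, is in assigned reads. FPKM and TPM, as deposited, are scaled to length and library. Whether strand was used in the counting is not given in the sources used here. Every sample column was used.

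Counts were summed by gene symbol, filtered at 10 counts in at least 1 library and scaled by TMM (edgeR 4.0.16, R 4.3.3). Log2 ratios used a prior count of 2, intervals were exact at 95%, and no fold is given against a library at 0. GC content came from GENCODE transcripts for 14995 genes (94.6% of those kept), and trends were removed by lowess fits (span 0.3, 5 cycles). Scripts ran in Python 3.11.15 (statsmodels 0.14.6, scipy 1.17.1, matplotlib 3.10.9, numpy 2.4.6, pandas 2.3.3). The steps were tested on simulated data. The scaling was also set by DESeq2 1.42.0 size factors, by the upper quartile and by library totals, and other alternatives were a prior count of 0.5, TPM and FPKM with a pseudocount of 1, other count filters and the removals of the trends.

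The members and the 14 gene lists were chosen with earlier results of these data known. All members are named, and from each list that does not mark a cell type the 3 genes with the highest and the 3 with the lowest log2 ratio among those with at least 100 counts in a library, plus paralogs of members. One gene that this rule names is not reported here. Genes of like pattern are not named, since 2 libraries give 1 ratio per gene.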

Additional observations from a re-analysis of the deposited data

How the results depend on the processing

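The 2 libraries give counting error but no spread between mice, and the estimator's assignment among transcripts adds an error that no interval covers. *Ppara* and *Ppargc1b* were higher and *Pdk4* lower under every alternative run, with log2 ratios from 0.35 to 1.00, from 0.23 to 1.29 and from -0.99 to -0.09. Both removals of the trends used the same GC content for each of these genes. *Ppargc1a* reversed to -0.27 when the trends with GC content and length were removed and to -0.42 when paired transcripts were used for that, an alternative chosen after seeing the data. *Cd36*, *Fabp1*, *Fabp2* and *Fabp4* changed sign under both removals and under no other alternative. The median of the members was 0.13 with the upper quartile, which moved the median of all genes to -0.13 and that of *Pparg* to -0.08, and -0.20 and -0.49 after the removals. Members past 2-fold higher numbered 0 with TPM and 0 with FPKM, each with a pseudocount of 1, 2 after removal of the trends and 0 with paired transcripts. The pseudocount is large beside the 0.304 and 1.19 TPM of *Ppargc1a*, whose TPM log2 ratio without it was 1.97. Genes past 2-fold higher numbered 3572 and lower 1337 (72.8% higher), against 1608 and 438 with TPM and 1029 and 307 with FPKM (pseudocount of 1), 1107 higher after the removal (46.4% higher) and 844 with paired transcripts (45.2% higher). Genes below 0.5 numbered 2064 with no count filter, 843 with at least 10 counts in both libraries and 789 with at least 50 counts in a library. The cause of the trend with GC content was not tested. *Ppard* changed sign under both removals, and *Pparg* with library totals, the upper quartile and paired transcripts. Depth limits *Ppard*, *Fabp4* and *Pdk4*, with 318 to 513 counts, whose intervals are the widest after those of the coactivators. No paired analysis was possible because each group has 1 library.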
